A study of Mus musculus with 16 samples.

Results

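The genes of the respiratory chain and the ATP synthase were followed in mouse heart RNA by complex and by the genome that encodes them. Members were chosen by name alone: symbols that begin with Nduf, Uqcr, Atp5, mt-Nd, mt-Co, mt-Cy or mt-Atp, Sdh followed by a, b, c or d, and Cox followed by a digit for the structural subunits. Symbols containing -ps were dropped. The members Ndufa11b, Ndufb4c, Ndufs6b and Cox6c2 stayed, although annotated as processed pseudogenes, and are called second gene copies below. The rule found 110 of the 55278 gene symbols in the count tables, 97 of them nuclear and 13 in the mitochondrial genome. Complex I had 47 nuclear and 7 mitochondrial members, complex II 4 nuclear members, complex III 8 and 1, complex IV 21 and 3, and complex V 17 and 2. Of the 110, 108 passed the filter on low counts. Ndufa11b and Cox8c were at 0 counts in all 16 libraries, and since low values in these tables pile up at multiples of 4, 3 reads at 4 counts each were taken as the limit, which allows up to 12 counts or 0.183 CPM (counts-per-million) in the smallest library, for counting error only.

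The 16 libraries came from hearts of 4 groups, with 4 libraries each. All mice were males on the C57BL/6J background, between 8 and 12 weeks of age. Mice with PPARα-deficient cardiomyocytes were given lipopolysaccharide (LPS, a bacterial endotoxin) or phosphate-buffered saline (PBS), and so were mice of the Ppara-flox line. LPS was given at 5 mg/kg into the peritoneum in PBS, and hearts were taken at 12 h. The labels set PPARα-deficient mice against floxed and not wild-type mice, do not name the Cre line, and describe no group that carries Cre without the deletion. Whole hearts also hold cells other than cardiomyocytes, in which the deletion is not described. The labels do not state that each library came from a separate animal, so p-values measure only the spread between these libraries, which may be technical.

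Library totals were 65569134 to 75436023 estimated counts, and the mitochondrial genome took 22.5% to 29.8% of them. The heart gene Myh6 was at 17239 CPM or more in every library and the islet hormone genes Ins1, Ins2, Gcg and Sst were at 0, although the label text on extraction speaks of islets. CPM values are given after scaling between libraries by TMM factors. Ppara itself averaged 7.98 ± 3.38 CPM in PPARα-deficient LPS hearts, 14.6 ± 2.58 in PPARα-deficient PBS hearts, 11.3 ± 3.31 in Ppara-flox LPS hearts and 50.2 ± 9.86 in Ppara-flox PBS hearts (SD, n = 4 each). The genotypes therefore differed in Ppara given PBS (log2 fold change −1.79, SE 0.28, edgeR adjusted p = 0.00287), while given LPS the difference did not pass (−0.50, SE 0.27, edgeR adjusted p = 0.651). Numbers in the column headers run from 1739 to 1769 in the LPS libraries and from 957 to 1075 in the PBS libraries. Whether they mark batches is not stated, and such a series and the treatment cannot be told apart.

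Complexes I to IV of the inner mitochondrial membrane carry electrons from NADH and succinate to oxygen. The proton gradient that complexes I, III and IV build across this membrane drives complex V, the ATP synthase. Nuclear genes encode most subunits and all of complex II, while the mitochondrial genome encodes hydrophobic core subunits of the other complexes. Heart muscle makes most of its ATP in this way. The coactivator PGC-1α and the ERR nuclear receptors are known activators of nuclear respiratory genes, and PPARα is a nuclear receptor best known for activating fatty acid oxidation genes.

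Several promoters are shown because they hold words of the factors linked to respiratory genes and belong to members described in the results. The sequences are RefSeq promoters on build GRCm38.p6, from 250 bases before to 30 bases after the gene start. Capitals mark a match to the motif named after each gene. Sdhd (chr9:50603820-50604099, minus strand) has CCGGAAG, the core word of ETS factors such as GABPA, on the opposite strand, its first base 46 bases before the start. Ndufb4 (chr16:37654339-37654618, minus strand) has the ERR word TNAAGGTCA 57 bases before the start. Atp5g3 (chr2:73911297-73911576, minus strand) has the same word on the opposite strand 52 bases before the start. Ndufaf1 (chr2:119662805-119663084, minus strand) has CCGGAAG 18 bases before the start.
Sdhd (ETS): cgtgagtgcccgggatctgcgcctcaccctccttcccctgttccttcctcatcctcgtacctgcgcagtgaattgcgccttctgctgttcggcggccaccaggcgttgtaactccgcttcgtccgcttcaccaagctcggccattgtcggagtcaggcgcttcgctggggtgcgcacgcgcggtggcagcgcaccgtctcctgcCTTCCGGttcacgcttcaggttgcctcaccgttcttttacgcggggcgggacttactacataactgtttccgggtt
Ndufb4 (ERR): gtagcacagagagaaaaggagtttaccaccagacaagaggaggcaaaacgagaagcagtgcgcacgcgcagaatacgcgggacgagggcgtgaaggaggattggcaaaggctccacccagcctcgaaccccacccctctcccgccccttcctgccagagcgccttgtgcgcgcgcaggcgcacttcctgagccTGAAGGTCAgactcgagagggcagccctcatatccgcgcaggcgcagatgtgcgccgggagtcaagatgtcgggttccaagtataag
Atp5g3 (ERR): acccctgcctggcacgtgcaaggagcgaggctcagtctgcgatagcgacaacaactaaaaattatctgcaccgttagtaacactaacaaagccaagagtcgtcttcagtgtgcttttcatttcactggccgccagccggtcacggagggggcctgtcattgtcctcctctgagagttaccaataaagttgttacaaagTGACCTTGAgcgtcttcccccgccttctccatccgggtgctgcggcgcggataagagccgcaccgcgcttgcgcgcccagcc
Ndufaf1 (ETS): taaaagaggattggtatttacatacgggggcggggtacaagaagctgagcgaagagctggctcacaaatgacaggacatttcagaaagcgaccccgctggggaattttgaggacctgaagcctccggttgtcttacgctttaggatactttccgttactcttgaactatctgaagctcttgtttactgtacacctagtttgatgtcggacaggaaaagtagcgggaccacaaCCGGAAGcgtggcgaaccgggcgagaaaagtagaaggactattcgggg

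Promoter windows of 300 bases were matched for 75 of the 97 nuclear members and for 12305 of the 18713 tested genes, and words were searched on both strands. The NRF1 word, GCGCA followed directly by its reverse complement TGCGC, was in 7 of 75 member windows (9.33%), against 2.01% of all windows. CCGGAAG was in 19 member windows (25.3%), against 17.8% of all windows. The YY1 word AANATGGCG was in 11 (14.7%), against 5.13%. The ERR word was in 3 (Sdhd, where it lies after the printed stretch, Ndufb4 and Atp5g3), against 0.91% of all windows. A pair of AGGTCA words 1 base apart, the kind of repeat that PPAR binds and which shares AGGTCA with the ERR word, was in 0 of 75 member windows, against 0.0569% of all windows. Of the 33 windows of members that fell with LPS in Ppara-flox hearts, 2 held the NRF1 word, 7 CCGGAAG, 4 the YY1 word and 3 the ERR word. Of the 42 windows of members tested there without a fall, the numbers were 5, 12, 7 and 0. A match describes letters in a window and is no shown binding site, and the shares were not tested.

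With LPS, some nuclear genes of each of the 5 complexes fell in Ppara-flox hearts, by small steps, while no gene of the mitochondrial genome passed the test. In PPARα-deficient hearts 17 of 108 tested members fell (15.7%, against 18.3% of all 18713 genes called lower) and 0 rose (against 19.4% called higher). In Ppara-flox hearts 42 of 108 fell (38.9%, against 19.1% of all genes) and 0 rose (against 20.2%). Calls are edgeR quasi-likelihood tests at an adjusted p under 0.05. At an unadjusted p under 0.05, 23 and 53 members were lower, against 22.4% and 22.9% of all genes. No rise was called by DESeq2 or limma-voom either, and no member was higher even at an unadjusted p under 0.05 by any of these 3 tools. The share lower in PPARα-deficient hearts was thus near that of all 18713 genes, and the share in Ppara-flox hearts was above it. The share of all genes depends on the filter. With only genes at 1 CPM or more in at least 8 libraries, 3246 of 13387 were called lower in PPARα-deficient hearts, a larger share than the 15.7% of members. In Ppara-flox hearts 3388 of 13387 were called lower, a smaller share than the 38.9% of members. These member shares are those of the main filter, and the members' shares under the stricter filter are not given here. The shares in Ppara-flox hearts differed by complex, with 4 of 4 genes of complex II, 4 of 8 nuclear genes of complex III (50%), 14 of 29 accessory subunits of complex I (48.3%) and 6 of 20 nuclear genes of complex IV (30%) lower. In complex V 4 of 17 nuclear genes were lower (23.5%), near the 19.1% of all genes. Median log2 fold changes there were −0.28 in complex II, −0.22 in complex III, −0.22 in the accessory subunits of complex I, −0.20 in complex IV and −0.18 in complex V. Differences between complexes were not tested. In bulk RNA fewer cells of a type and less RNA per cell cannot be told apart.

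All 17 members that fell in PPARα-deficient hearts were among the 42 that fell in Ppara-flox hearts, which is 100% of the shorter list and 40.5% of the longer. Over all genes 3429 and 3583 were called lower, and the overlap of those lists is not given here. Both lists come from the same fit, so the overlap is not shown to be particular to the members. Counted by sign, 94 of 108 members were below 0 in PPARα-deficient hearts, against 49.5% of all genes, and 100 of 108 in Ppara-flox hearts, against 49.4%. The 80 nuclear subunits, without assembly factors, second gene copies and rare isoforms, had a median log2 fold change of −0.13 in PPARα-deficient hearts and −0.21 in Ppara-flox hearts, against 0.01 for all genes in both. In percent these medians are −8.31% and −13.6%. The groups did not overlap, with LPS lower, for 27 members in PPARα-deficient hearts and 40 in Ppara-flox hearts, against 18.4% of all genes in each.

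Members of a library moved together, so that 1 library can carry many calls. In Ppara-flox LPS replicate 4, 5 of the 80 nuclear subunits were above their own group's mean, and the median deviation was −0.16 on the log2 scale. In Ppara-flox PBS replicates 1 to 4 these medians were −0.11, 0.10, 0.06 and −0.06. Split by length in Ppara-flox LPS replicate 4, the median was −0.20 for the 53 subunits with shorter main transcripts and −0.09 for the 26 with longer ones. In that library mt-Rnr1 took 0.41% of all counts, against 0.10%, 0.13% and 0.10% in Ppara-flox LPS replicates 1 to 3. In PPARα-deficient LPS replicate 3 mt-Rnr1 took 0.29%, against 0.10%, 0.13% and 0.17% in replicates 1, 2 and 4 of that group. The medians by length in PPARα-deficient LPS replicate 3 were −0.10 for the shorter and 0.01 for the longer. The PBS libraries of both genotypes had mt-Rnr1 at 0.13% to 0.21%. The cause of these shifts was not tested. Each library was left out in turn. Without PPARα-deficient PBS replicate 1, 9 members were called lower in PPARα-deficient hearts, and without PPARα-deficient LPS replicate 4 the number was 10. In Ppara-flox hearts the number was lowest, at 29, without Ppara-flox LPS replicate 4 and again without Ppara-flox PBS replicate 2. The members called whichever library was left out numbered 8 in PPARα-deficient hearts (Ndufs1, Ndufv2, Ndufab1, Ndufaf1, Ndufaf6, Sdhd, Uqcrc2 and Uqcrfs1) and 27 in Ppara-flox hearts, all 8 of these among them.

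**Figure D1:**
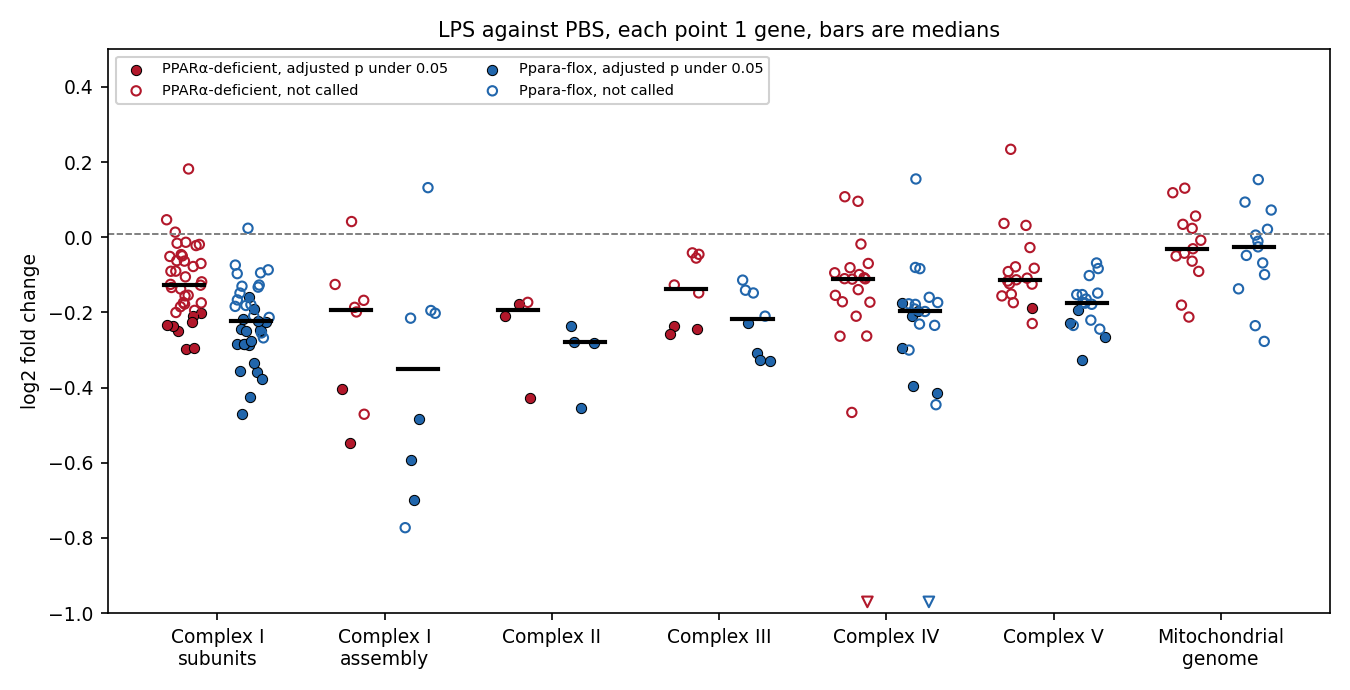
The log2 fold change of LPS over PBS (vertical axis) is plotted for each tested member, by complex and genome on the horizontal axis, with PPARα-deficient hearts in red left of Ppara-flox hearts in blue. Filled points passed an adjusted p under 0.05, bars are medians, the dashed lines are the medians of all genes (0.01), and the triangles are Cox7b2, off the scale at −1.28 and −2.35; most nuclear points lie below 0, no filled point lies above 0, and the mitochondrial genome has none.

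Complex I, the NADH dehydrogenase, had calls in its core, in its accessory subunits and among its assembly factors. The nuclear core subunits carry the electron path from NADH to ubiquinone, and those described next are not all of them. Ndufs1, the largest iron-sulfur subunit (chr1:63143596-63176833, minus strand, build GRCm38), had 487, 511, 554 and 469 CPM in PPARα-deficient LPS hearts and 638, 619, 624 and 603 CPM in PPARα-deficient PBS hearts. In Ppara-flox hearts Ndufs1 had 512, 442, 502 and 510 CPM with LPS and 620, 616, 636 and 681 CPM with PBS. Every LPS library of either genotype was below every PBS library. The log2 fold changes were −0.30 (SE 0.07, edgeR adjusted p = 0.00259) and −0.38 (SE 0.07, edgeR adjusted p = 0.000355). Ndufs1 shares exon bases with Eef1b2 on the other strand. So do Ndufa11 with Vmac, Ndufaf3 with Impdh2, Uqcrc2 with Pdzd9, Ndufa4l2 with Shmt2, Cox4i1 with Emc8, Atp5a1 with Haus1 and mt-Nd5 with mt-Nd6, and mt-Nd4l overlaps mt-Nd4 on the same strand. The strand setting of the counting is not given in the sources used here, so the counts of these genes are uncertain.

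Ndufv2, the iron-sulfur subunit beside the NADH site, had 232, 242, 250 and 221 CPM in PPARα-deficient LPS hearts and 283, 287, 278 and 263 CPM in PPARα-deficient PBS hearts. In Ppara-flox hearts it had 236, 245, 211 and 228 CPM with LPS and 267, 286, 272 and 287 CPM with PBS. The LPS and PBS libraries did not overlap in either genotype, and the falls were 0.23 and 0.28 on the log2 scale (edgeR adjusted p = 0.0101 and 0.00328). Ndufs7, which holds the last iron-sulfur cluster before ubiquinone, fell in both genotypes too, with log2 fold changes of −0.30 and −0.42. Its call in PPARα-deficient hearts ended without PPARα-deficient LPS replicate 2 or 3, or without PPARα-deficient PBS replicate 1 or 2, with adjusted p up to 0.0976. Ndufs3 and Ndufs8 had log2 fold changes of −0.13 and −0.15 without a call in PPARα-deficient hearts, and were called in Ppara-flox hearts at −0.19 and −0.36. The Ndufs3 call ended without Ppara-flox PBS replicate 2, 3 or 4 or LPS replicate 1 or 4 (adjusted p up to 0.0824). Ndufv1, the NADH-binding flavoprotein, had log2 fold changes of −0.02 and −0.17 and passed in neither genotype.

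Among the 29 accessory (supernumerary) subunits, which surround the core and are needed to build it, 4 fell in PPARα-deficient hearts (13.8%, against 18.3% of all genes) and 14 in Ppara-flox hearts (48.3%, against 19.1%), with median log2 fold changes of −0.12 and −0.22. Ndufab1, the mitochondrial acyl carrier protein, fell in both genotypes, by 0.25 and 0.33 on the log2 scale. Ndufa8 had 282, 261, 239 and 262 CPM in PPARα-deficient LPS hearts and 315, 302, 295 and 296 CPM in PPARα-deficient PBS hearts, without overlap. In Ppara-flox hearts Ndufa8 had 255, 257, 249 and 211 CPM with LPS and 295, 344, 311 and 296 CPM with PBS, again without overlap. Its log2 fold changes were −0.21 and −0.36 (edgeR adjusted p = 0.0437 and 0.00155), and the call in PPARα-deficient hearts was lost in 7 of the 8 fits that left out 1 of its libraries, all but the one without PPARα-deficient LPS replicate 1 (adjusted p up to 0.127). Ndufb4, whose promoter with the ERR word is printed above, had log2 fold changes of −0.18 and −0.25 and passed in Ppara-flox hearts.

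Ndufa11, a membrane-arm subunit, had the steepest fall of the complex I subunits in Ppara-flox hearts. It had 76.4, 67.2, 84.3 and 56.7 CPM in Ppara-flox LPS hearts and 87.9, 113, 107 and 86.4 CPM in Ppara-flox PBS hearts, without overlap and with the nearest libraries close together. The fall there was 0.47 on the log2 scale (SE 0.13, edgeR adjusted p = 0.00666). In PPARα-deficient hearts Ndufa11 had 89.4, 88.7, 92.2 and 80.2 CPM with LPS and 93.1, 110, 86.6 and 83.3 CPM with PBS, overlapping, with a log2 fold change of −0.09. Of the remaining 28 accessory subunits, Ndufa7 alone was above 0 in both genotypes, at 0.05 and 0.02, without a call. Ndufa6 had 119, 130, 132 and 112 CPM in Ppara-flox LPS hearts and 136, 162, 163 and 141 CPM in Ppara-flox PBS hearts, a fall of 0.28 on the log2 scale (edgeR adjusted p = 0.01). In PPARα-deficient hearts it had 146, 138, 132 and 150 CPM with LPS and 148, 135, 150 and 139 CPM with PBS, at −0.01.

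The complex I assembly factors, which help build the complex and leave it, held the members with the lowest adjusted p. Ndufaf1, part of the assembly complex for the membrane arm (chr2:119655446-119662827, minus strand), had 20.9, 22.6, 20.8 and 23.1 CPM in PPARα-deficient LPS hearts and 31.5, 32.7, 32.8 and 30.7 CPM in PPARα-deficient PBS hearts. In Ppara-flox hearts Ndufaf1 had 19.9, 23.4, 20.6 and 20.4 CPM with LPS and 33.4, 32.5, 28.6 and 32.5 CPM with PBS. The highest LPS library of the 8 was below the lowest PBS library. Its falls were 0.55 (SE 0.08, edgeR adjusted p = 3.38e-05) and 0.59 on the log2 scale (SE 0.08, edgeR adjusted p = 1.47e-05).

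Ndufaf6 had 9.08, 8.63, 9.51 and 9.61 CPM in PPARα-deficient LPS hearts and 13.3, 11.8, 12.1 and 11.5 CPM in PPARα-deficient PBS hearts. With LPS it had 8.02, 7.49, 6.94 and 6.99 CPM in Ppara-flox hearts, against 11.1, 13.4, 10.9 and 12.4 CPM with PBS. The groups did not overlap in either genotype, and the log2 fold changes were −0.40 (SE 0.10, edgeR adjusted p = 0.00418) and −0.70 (SE 0.10, edgeR adjusted p = 3.49e-05). Ndufaf3, an early assembly factor, was called in Ppara-flox hearts at −0.48, against −0.20 without a call in PPARα-deficient hearts. The other 5 factors passed in neither genotype. Among them Ndufaf4 had wide spread, with 17.5 to 40.1 CPM in PPARα-deficient LPS hearts, 24.7 to 52.7 in PPARα-deficient PBS hearts, 18.3 to 36.4 in Ppara-flox LPS hearts and 26.4 to 56.3 in Ppara-flox PBS hearts. Levels of the 8 factors were low beside the subunits, at 6.47 to 22.5 CPM per kilobase of transcript over the 4 groups, against 190 to 247 for Ndufs1.

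Complex II, succinate dehydrogenase, links the citric acid cycle to the chain and has no mitochondrial gene. All 4 genes fell in Ppara-flox hearts and 3 of 4 in PPARα-deficient hearts. Sdhd, a membrane anchor that binds the heme with Sdhc (chr9:50596357-50603812, minus strand), had 227, 227, 246 and 245 CPM in PPARα-deficient LPS hearts and 323, 346, 315 and 288 CPM in PPARα-deficient PBS hearts. In Ppara-flox hearts Sdhd had 234, 231, 242 and 220 CPM with LPS and 290, 341, 333 and 305 CPM with PBS. The LPS libraries were close to each other and all below the PBS libraries. Sdhd fell by 0.43 (SE 0.07, edgeR adjusted p = 0.000208) and by 0.45 on the log2 scale (SE 0.07, edgeR adjusted p = 0.000119).

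Sdha, the flavoprotein that oxidises succinate, had 1263, 1296, 1350 and 1256 CPM in PPARα-deficient LPS hearts and 1506, 1478, 1497 and 1361 CPM in PPARα-deficient PBS hearts. With LPS it had 1194, 1179, 1247 and 1265 CPM in Ppara-flox hearts, against 1421, 1417, 1471 and 1446 CPM with PBS. The groups did not overlap, and the falls were 0.18 and 0.24 on the log2 scale (edgeR adjusted p = 0.0178 and 0.00265). Sdhc had log2 fold changes of −0.21 and −0.28 with calls in both, and Sdhb, the iron-sulfur subunit, −0.17 without a call and −0.28 with one. In PPARα-deficient hearts the Sdha call ended without PPARα-deficient PBS replicate 1 or 3 or LPS replicate 4 (adjusted p up to 0.0558), and the Sdhc call without PPARα-deficient PBS replicate 1 or LPS replicate 2 or 4 (adjusted p up to 0.0767). Summed, complex II stood at 2333 ± 50.3 CPM in PPARα-deficient LPS hearts and 2695 ± 146 CPM in PPARα-deficient PBS hearts. The sums were 2226 ± 53.7 CPM in Ppara-flox LPS hearts and 2696 ± 73.6 CPM in Ppara-flox PBS hearts (SD, n = 4 each), without overlap between LPS and PBS in either genotype. As a share of all counts, before TMM scaling, the complex II sums overlapped in PPARα-deficient hearts and did not overlap in Ppara-flox hearts.

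Complex III, the cytochrome bc1 complex, passes electrons from ubiquinol to cytochrome c, and its calls were the core proteins, the Rieske protein and, in Ppara-flox hearts, the small subunit Uqcrb. Uqcrc2, a core protein (chr7:120635176-120659524, plus strand), had 660, 671, 744 and 677 CPM in PPARα-deficient LPS hearts and 833, 777, 825 and 807 CPM in PPARα-deficient PBS hearts. In Ppara-flox hearts Uqcrc2 had 661, 609, 641 and 632 CPM with LPS and 758, 800, 789 and 800 CPM with PBS. PPARα-deficient LPS replicate 3 was high in its group, and the groups still did not overlap. The log2 fold changes were −0.24 (SE 0.06, edgeR adjusted p = 0.00403) and −0.31 (SE 0.06, edgeR adjusted p = 0.000475).

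Uqcrfs1, the Rieske iron-sulfur protein that takes electrons from ubiquinol, had 519, 529, 536 and 504 CPM in PPARα-deficient LPS hearts and 622, 644, 641 and 590 CPM in PPARα-deficient PBS hearts. With LPS it had 519, 513, 521 and 450 CPM in Ppara-flox hearts, against 579, 624, 671 and 635 CPM with PBS. No LPS library reached a PBS library, and the falls were 0.26 and 0.33 on the log2 scale (edgeR adjusted p = 0.00533 and 0.000884). Uqcrc1, the other core protein, had 1093, 962, 989 and 1006 CPM in PPARα-deficient LPS hearts and 1254, 1259, 1181 and 1108 CPM in PPARα-deficient PBS hearts. Its Ppara-flox values were 1042, 1023, 1010 and 874 CPM with LPS and 1112, 1348, 1346 and 1153 CPM with PBS. These groups did not overlap either, and the log2 fold changes were −0.25 and −0.33 (edgeR adjusted p = 0.0252 and 0.00405). The call of Uqcrc1 in PPARα-deficient hearts ended without PPARα-deficient LPS replicate 2, 3 or 4 or PBS replicate 1 or 2 (adjusted p up to 0.0741).

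The 5 small subunits of complex III had log2 fold changes of −0.15 to −0.04 in PPARα-deficient hearts with 0 calls, and 0 at an unadjusted p under 0.05. In Ppara-flox hearts they ranged from −0.23 to −0.11 with 1 call, Uqcrb. Summed nuclear complex III genes stood at 3534 ± 82.2 CPM in PPARα-deficient LPS hearts and 4025 ± 159 CPM in PPARα-deficient PBS hearts. The sums were 3385 ± 227 CPM in Ppara-flox LPS hearts and 4072 ± 248 CPM in Ppara-flox PBS hearts, without overlap in either genotype. As a share of all counts these sums overlapped in both genotypes. In summed CPM, the nuclear genes of complex IV overlapped between LPS and PBS in both genotypes. Those of complex V overlapped in PPARα-deficient hearts only, and those of complex I in neither genotype. As a share of all counts the nuclear sums of complexes I, IV and V overlapped in both genotypes.

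**Figure D2:**
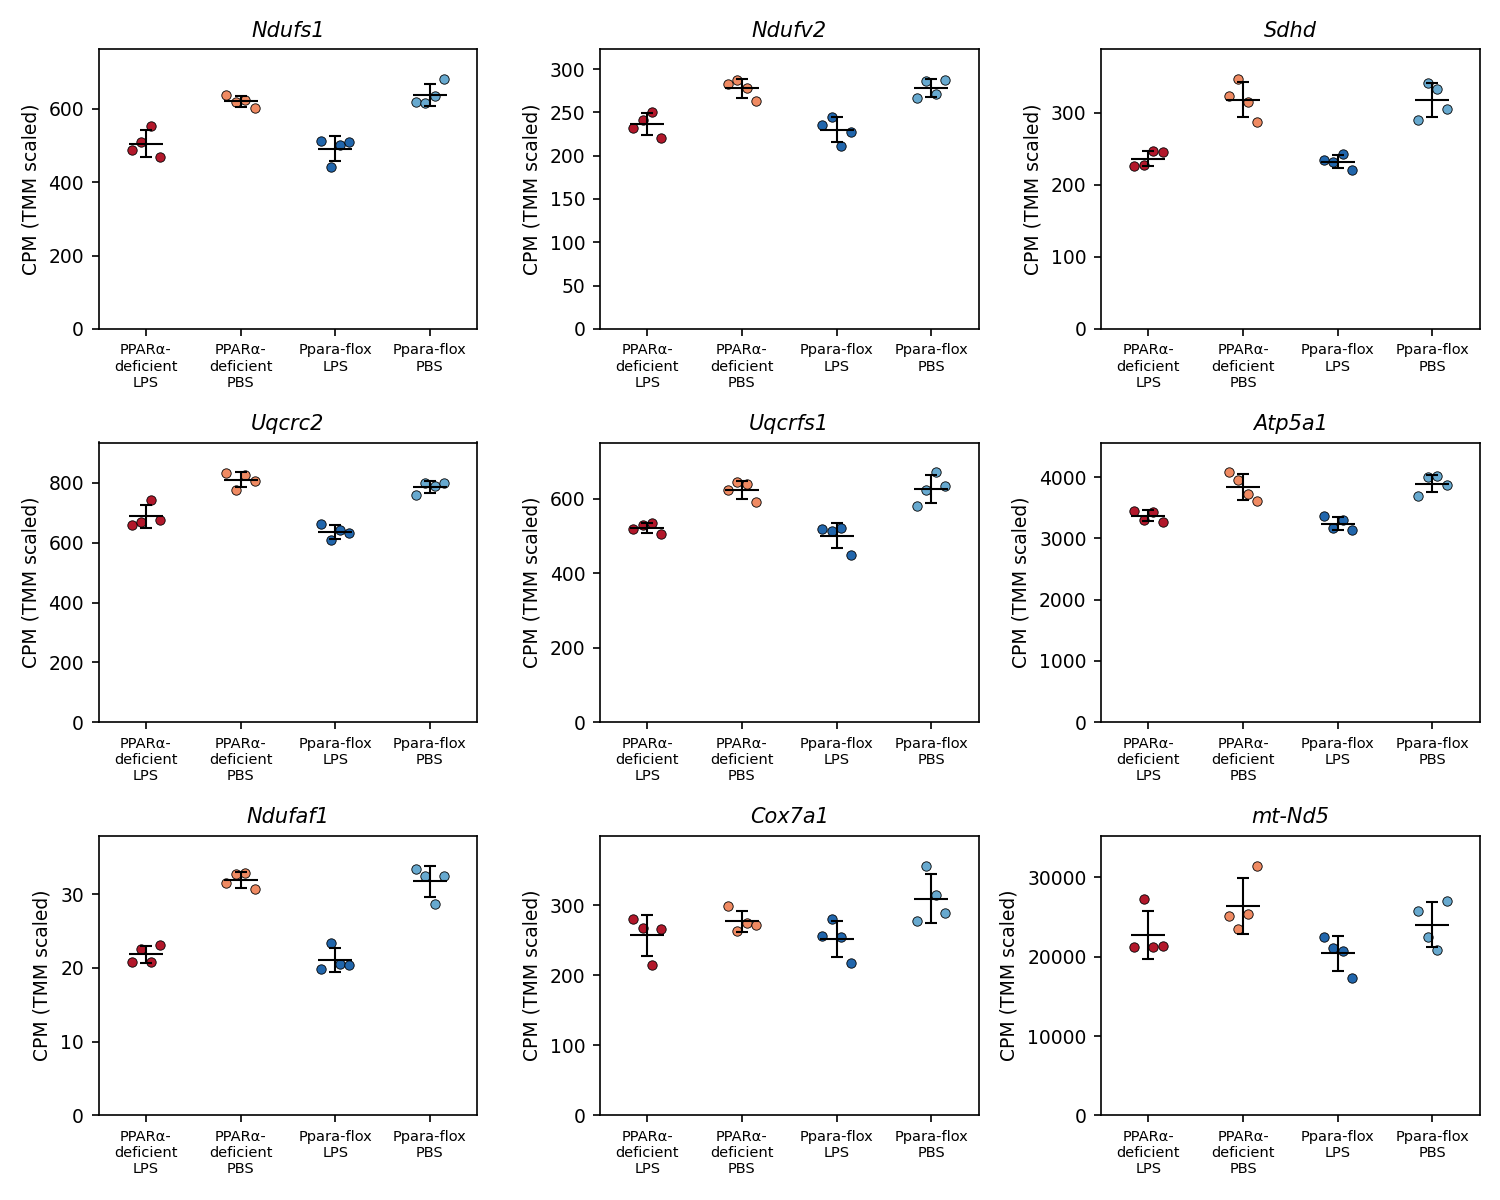
Levels of 9 members in CPM (vertical axes, from 0, after TMM scaling) are plotted for each library, with the groups in the order PPARα-deficient LPS, PPARα-deficient PBS, Ppara-flox LPS and Ppara-flox PBS; lines and bars are the mean and SD of 4 libraries. LPS lies below PBS without overlap in both genotypes for Ndufs1, Ndufv2, Sdhd, Uqcrc2, Uqcrfs1, Atp5a1 and Ndufaf1, whereas the groups overlap for Cox7a1 and mt-Nd5.

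Complex IV, cytochrome c oxidase, reduces oxygen, and its nuclear subunits tune the mitochondrial core, some as heart and muscle isoforms. None of its 20 tested nuclear members was called in PPARα-deficient hearts by edgeR, with 1 (Cox7a2l) at an unadjusted p under 0.05. In Ppara-flox hearts 6 fell: Cox7a2l, Ndufa4l2, Cox7a1, Cox7b, Cox7c and Ndufa4. These shares were 0% and 30%, against 18.3% and 19.1% of all genes, and the medians were −0.11 and −0.20.

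Cox7a2l (chr17:83501918-83517330, minus strand) is known as a factor that joins complexes III and IV in supercomplexes. Whether its protein has this function in mice of this background was not tested, so its RNA level says nothing about supercomplexes here. Cox7a2l had 158, 160, 146 and 119 CPM in PPARα-deficient LPS hearts and 197, 158, 162 and 181 CPM in PPARα-deficient PBS hearts, overlapping. In Ppara-flox hearts Cox7a2l had 112, 136, 138 and 135 CPM with LPS and 174, 185, 147 and 189 CPM with PBS, without overlap. Its log2 fold changes were −0.26 (SE 0.11, edgeR adjusted p = 0.076) and −0.41 (SE 0.11, edgeR adjusted p = 0.00734). Ndufa4l2, a paralog of the complex IV subunit Ndufa4 known to respond to hypoxia, had 13.1, 11.7, 13.5 and 9.68 CPM in Ppara-flox LPS hearts and 16.3, 17.3, 15.5 and 14.1 CPM in Ppara-flox PBS hearts, without overlap. It fell there by 0.40 on the log2 scale (SE 0.12, edgeR adjusted p = 0.0128). In PPARα-deficient hearts Ndufa4l2 had 14.4, 13.2, 11.7 and 13.8 CPM with LPS and 12.6, 15.8, 13.7 and 13.4 CPM with PBS, overlapping, at −0.07.

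Cox7a1, the heart and muscle isoform of subunit VIIa, had 256, 280, 254 and 218 CPM in Ppara-flox LPS hearts and 277, 357, 314 and 290 CPM in Ppara-flox PBS hearts, overlapping in 1 pair of libraries. It fell by 0.30 on the log2 scale (SE 0.10, edgeR adjusted p = 0.0281). In PPARα-deficient hearts Cox7a1 had 281, 268, 214 and 266 CPM with LPS and 299, 264, 274 and 272 CPM with PBS, at −0.11 without a call. The Cox7a1 call ended without Ppara-flox PBS replicate 2 or 3 or LPS replicate 1 or 4 (adjusted p up to 0.104). Those of Cox7b, Cox7c and Ndufa4, at −0.21, −0.20 and −0.17, ended in 5, 5 and 7 of the 8 fits that left out a library, with adjusted p up to 0.141, 0.143 and 0.118. Those fits were the ones without Ppara-flox LPS replicates 2 and 4 and PBS replicates 2, 3 and 4 for Cox7b, without LPS replicates 1, 2 and 4 and PBS replicates 2 and 3 for Cox7c, and all but the one without LPS replicate 2 for Ndufa4.

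Cox4i1, the main isoform of subunit IV, varied more between libraries than between groups, with 1015, 1086, 788 and 576 CPM in PPARα-deficient LPS hearts and 1267, 1164, 863 and 862 CPM in PPARα-deficient PBS hearts. In Ppara-flox hearts it had 1106, 1135, 890 and 749 CPM with LPS and 573, 1377, 673 and 864 CPM with PBS. The log2 fold changes were −0.26 and 0.15, each with an SE of 0.25. Cox4i2, the isoform best known from lung, had 4.24, 4.20, 2.21 and 2.75 CPM in PPARα-deficient LPS hearts and 4.66, 4.33, 4.84 and 4.68 CPM in PPARα-deficient PBS hearts. Its Ppara-flox values were 2.93, 3.61, 5.02 and 1.85 CPM with LPS and 3.97, 5.26, 4.82 and 4.24 CPM with PBS. Its log2 fold changes were −0.47 and −0.45 without a call, and it was called in Ppara-flox hearts without Ppara-flox LPS replicate 3 (edgeR adjusted p = 0.0302). Cox7b2, a paralog of Cox7b, was at 0.228 CPM or less in every library.

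Among the other isoforms, Cox7b had 433, 404, 432 and 363 CPM in Ppara-flox LPS hearts and 434, 505, 495 and 453 CPM in Ppara-flox PBS hearts, and Ndufa4 had 266, 269, 252 and 244 CPM with LPS and 280, 289, 291 and 304 CPM with PBS. Neither overlapped between LPS and PBS there. In PPARα-deficient hearts Cox7b had 435, 435, 401 and 406 CPM with LPS and 493, 472, 440 and 407 CPM with PBS, overlapping. Ndufa4 had 274, 268, 264 and 261 CPM with LPS and 311, 289, 287 and 257 CPM with PBS in PPARα-deficient hearts, also overlapping. Cox7a2, the widely expressed form of subunit VIIa, had 141, 135, 133 and 132 CPM in PPARα-deficient LPS hearts and 172, 160, 145 and 133 CPM in PPARα-deficient PBS hearts. It had 125, 144, 131 and 111 CPM in Ppara-flox LPS hearts and 142, 161, 150 and 146 CPM in Ppara-flox PBS hearts. The groups overlapped in both genotypes, and the log2 fold changes were −0.17 and −0.23 without a call. In Ppara-flox hearts Cox7a2 lay near the threshold and was called lower in 10 of 20 alternatives, among them DESeq2, limma-voom and the fits without Ppara-flox LPS replicate 2 or 3 (adjusted p down to 0.0214).

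The heart isoforms Cox6a2 and Cox8b and their partners were spread widely between libraries. Cox6a2 had 947, 818, 793 and 824 CPM in PPARα-deficient LPS hearts and 893, 933, 857 and 743 CPM in PPARα-deficient PBS hearts. In Ppara-flox hearts Cox6a2 had 794, 882, 856 and 663 CPM with LPS and 751, 955, 1100 and 841 CPM with PBS. Cox6a1 ranged from 83.3 to 102 CPM and from 97.1 to 113 CPM in PPARα-deficient LPS and PBS hearts, and from 73.4 to 106 CPM and from 89.8 to 123 CPM in Ppara-flox LPS and PBS hearts. Cox8b had 166, 165, 141 and 158 CPM in PPARα-deficient LPS hearts and 191, 180, 171 and 159 CPM in PPARα-deficient PBS hearts. In Ppara-flox hearts Cox8b had 148, 178, 164 and 135 CPM with LPS and 159, 206, 203 and 168 CPM with PBS. Cox8a ranged from 46.7 to 61.0 CPM and from 55.0 to 71.3 CPM in PPARα-deficient LPS and PBS hearts, and from 45.8 to 60.8 CPM and from 58.9 to 73.7 CPM in Ppara-flox LPS and PBS hearts. LPS and PBS libraries overlapped for all 4 genes in both genotypes, and no call was made. In Ppara-flox hearts Cox8a was called lower in 9 of 20 alternatives, among them DESeq2, limma-voom and the fits without Ppara-flox PBS replicate 1 or LPS replicate 3 (adjusted p down to 0.0242). Cox8b was called lower there in 3 of 20, with upper-quartile scaling and without Ppara-flox PBS replicate 1 or LPS replicate 2 (adjusted p down to 0.0411).

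The balance between heart and widely expressed isoforms was similar in all groups when levels were taken per length of the main transcript. Cox6a2 made up 88.4 ± 0.88% of Cox6a2 and Cox6a1 in PPARα-deficient LPS hearts, 87.5 ± 0.75% in PPARα-deficient PBS hearts, 87.6 ± 0.58% in Ppara-flox LPS hearts and 87.8 ± 0.88% in Ppara-flox PBS hearts (SD, n = 4 each). Cox7a1 made up 76.0 ± 2.0%, 75.3 ± 1.7%, 76.8 ± 0.42% and 77.5 ± 0.97% of Cox7a1 and Cox7a2 in the same order of groups. Cox8b made up 81.6 ± 2.0%, 81.0 ± 1.07%, 81.5 ± 1.51% and 80.8 ± 0.81% of Cox8b and Cox8a. The ranges of LPS and PBS libraries overlapped for all 3 in both genotypes.

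Complex V, the ATP synthase, turns the proton gradient into ATP by rotating a ring of c subunits against the F1 head. Of its 17 nuclear genes 1 fell in PPARα-deficient hearts (5.88%, against 18.3% of all genes) and 4 in Ppara-flox hearts (23.5%, against 19.1%), with medians of −0.11 and −0.18. These shares were below and near those of all genes. Atp5a1, the alpha subunit of the F1 head (chr18:77773729-77782869, plus strand), had 3454, 3305, 3433 and 3273 CPM in PPARα-deficient LPS hearts and 4075, 3960, 3716 and 3604 CPM in PPARα-deficient PBS hearts. In Ppara-flox hearts Atp5a1 had 3357, 3176, 3293 and 3136 CPM with LPS and 3696, 3993, 4011 and 3877 CPM with PBS. LPS libraries were below PBS libraries without overlap in both. The falls were 0.19 (SE 0.06, edgeR adjusted p = 0.0138) and 0.27 on the log2 scale (SE 0.06, edgeR adjusted p = 0.0013), and that in PPARα-deficient hearts was not called without PPARα-deficient PBS replicate 1 (edgeR adjusted p = 0.057). Atp5b, the catalytic beta subunit, had log2 fold changes of −0.08 and −0.19 and passed in Ppara-flox hearts, though not without Ppara-flox LPS replicate 2 or 4 or PBS replicate 2 or 3 (adjusted p up to 0.0705).

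Atp5g1, Atp5g2 and Atp5g3 encode the same mature c subunit and differ in the peptide that directs import. Atp5g1 had 779, 767, 661 and 769 CPM in PPARα-deficient LPS hearts and 897, 941, 835 and 815 CPM in PPARα-deficient PBS hearts, without overlap. In Ppara-flox hearts Atp5g1 had 705, 812, 763 and 591 CPM with LPS and 807, 994, 978 and 823 CPM with PBS, overlapping in 1 pair of libraries. Its log2 fold changes were −0.23 (SE 0.10, edgeR adjusted p = 0.0846) and −0.33 (SE 0.10, edgeR adjusted p = 0.0161). Atp5g3 had 682, 725, 690 and 581 CPM in Ppara-flox LPS hearts and 740, 843, 822 and 734 CPM in Ppara-flox PBS hearts, a fall of 0.23 on the log2 scale without overlap. In PPARα-deficient hearts Atp5g3 had 721, 701, 672 and 653 CPM with LPS and 797, 786, 725 and 686 CPM with PBS, overlapping, at −0.12. Atp5g2 had 150, 146, 120 and 144 CPM in PPARα-deficient LPS hearts and 151, 150, 129 and 116 CPM in PPARα-deficient PBS hearts. Its Ppara-flox values were 130, 143, 139 and 116 CPM with LPS and 117, 157, 156 and 125 CPM with PBS. Atp5g2 overlapped in both genotypes, at 0.04 and −0.07 without a call. The Atp5g1 call ended without Ppara-flox PBS replicate 2 or LPS replicate 4 (adjusted p up to 0.0559), and the Atp5g3 call without Ppara-flox LPS replicate 1 or 4 or PBS replicate 2 or 3 (adjusted p up to 0.098).

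Within this family the share of Atp5g2 was higher with LPS in both genotypes. Per length, Atp5g2 made up 13.5 ± 0.59% of the 3 genes in PPARα-deficient LPS hearts (12.6% to 13.9%) and 11.8 ± 0.65% in PPARα-deficient PBS hearts (10.96% to 12.4%). The share was 13.2 ± 0.33% in Ppara-flox LPS hearts (12.9% to 13.6%) and 11.5 ± 0.63% in Ppara-flox PBS hearts (10.7% to 12.1%), so that the groups did not overlap in either genotype. Atp5g1 made up 45.7 ± 1.31% and 48.2 ± 0.85% in PPARα-deficient LPS and PBS hearts, with overlap, and 45.5 ± 1.15% and 47.9 ± 0.58% in Ppara-flox LPS and PBS hearts, without overlap. These shares were not tested.

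**Figure D3:**
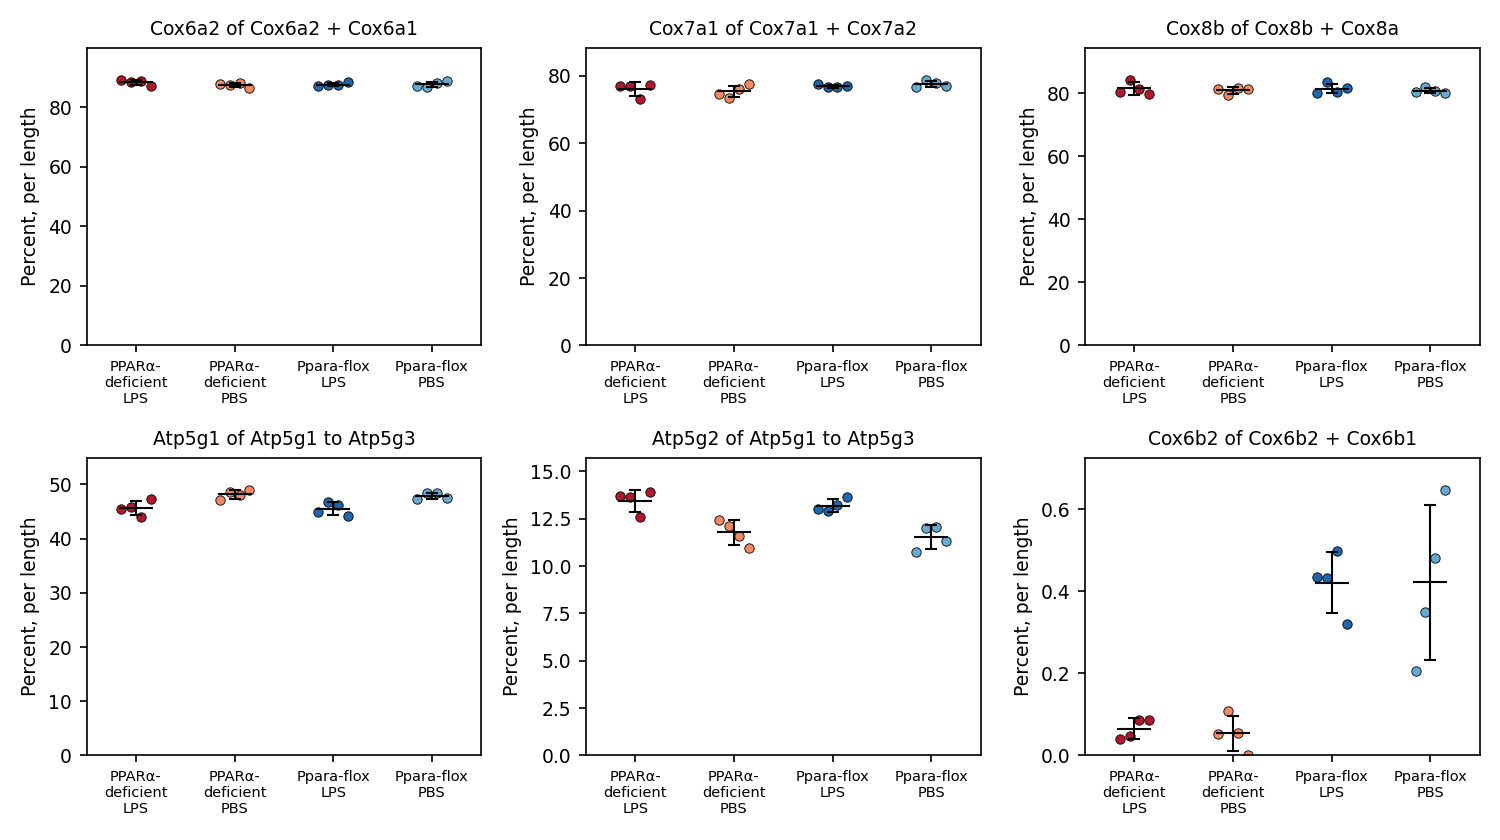
Shares of isoforms in percent, per length of the main transcript (vertical axes, from 0), are plotted for each library in the order PPARα-deficient LPS, PPARα-deficient PBS, Ppara-flox LPS and Ppara-flox PBS, with the mean and SD of 4 libraries. The heart isoforms Cox6a2, Cox7a1 and Cox8b keep overlapping shares, the Atp5g2 share is higher with LPS without overlap, and the Cox6b2 share is under 0.11% in all 8 PPARα-deficient libraries.

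The mitochondrial genome supplied the most abundant members and none that passed. All 13 genes were tested, and edgeR called 0 of them in either LPS comparison, with 0 at an unadjusted p under 0.05; DESeq2 and limma-voom also called 0, with 1 at an unadjusted p under 0.05 by DESeq2 in Ppara-flox hearts. The median log2 fold change was −0.03 in each genotype. Over the alternatives it ranged from −0.12 to 0.07 in PPARα-deficient hearts and from −0.12 to 0.04 in Ppara-flox hearts, so its sign changed with the library left out. The nearest to a call was mt-Nd5, a proton-pumping core subunit of complex I, with 21243, 27248, 21235 and 21319 CPM in PPARα-deficient LPS hearts and 25157, 23466, 25375 and 31484 CPM in PPARα-deficient PBS hearts. In Ppara-flox hearts mt-Nd5 had 22431, 21165, 20746 and 17360 CPM with LPS and 25760, 22433, 20900 and 27081 CPM with PBS. The groups overlapped, and the log2 fold changes were −0.21 (SE 0.11, edgeR adjusted p = 0.16) and −0.24 (SE 0.11, edgeR adjusted p = 0.116). In PPARα-deficient hearts mt-Nd5 was called lower without PPARα-deficient LPS replicate 2 (edgeR adjusted p = 0.0451).

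The gene mt-Nd4l, which neighbours mt-Nd4 and encodes another membrane subunit, had 3107, 4103, 3704 and 3153 CPM in PPARα-deficient LPS hearts and 3532, 3275, 4216 and 4920 CPM in PPARα-deficient PBS hearts, overlapping. Its Ppara-flox values were 3051, 2871, 2769 and 2612 CPM with LPS and 3784, 2726, 2780 and 4405 CPM with PBS, overlapping too. Its log2 fold changes were −0.18 and −0.28 without a call. Per kilobase of transcript, the mitochondrial genes had median levels of 16730 and 16820 CPM in PPARα-deficient LPS and PBS hearts and 13590 and 14950 CPM in Ppara-flox LPS and PBS hearts. The nuclear members other than Atp5md, which had no transcript length, had medians of 239, 256, 225 and 257 CPM per kilobase in the same groups. The highest mitochondrial gene, mt-Co1 of the catalytic core of complex IV, was at 65660, 64600, 58820 and 61680 CPM per kilobase, and the highest nuclear member, Atp5b, at 2162, 2289, 2101 and 2402.

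As a share of all counts, the 13 mitochondrial genes took 26.4 ± 1.59% in PPARα-deficient LPS hearts, 25.9 ± 2.46% in PPARα-deficient PBS hearts, 24.2 ± 1.79% in Ppara-flox LPS hearts and 23.98 ± 2.45% in Ppara-flox PBS hearts. The 97 nuclear genes took 3.17 ± 0.19%, 3.41 ± 0.27%, 3.19 ± 0.18% and 3.53 ± 0.31% in the same order, and LPS and PBS libraries overlapped in both measures and both genotypes. After TMM scaling the summed nuclear members stood at 31757 ± 1178 CPM in PPARα-deficient LPS hearts and 34997 ± 2005 CPM in PPARα-deficient PBS hearts, with overlap. They stood at 30598 ± 1796 CPM in Ppara-flox LPS hearts and 35634 ± 2055 CPM in Ppara-flox PBS hearts, without overlap.

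**Figure D4:**
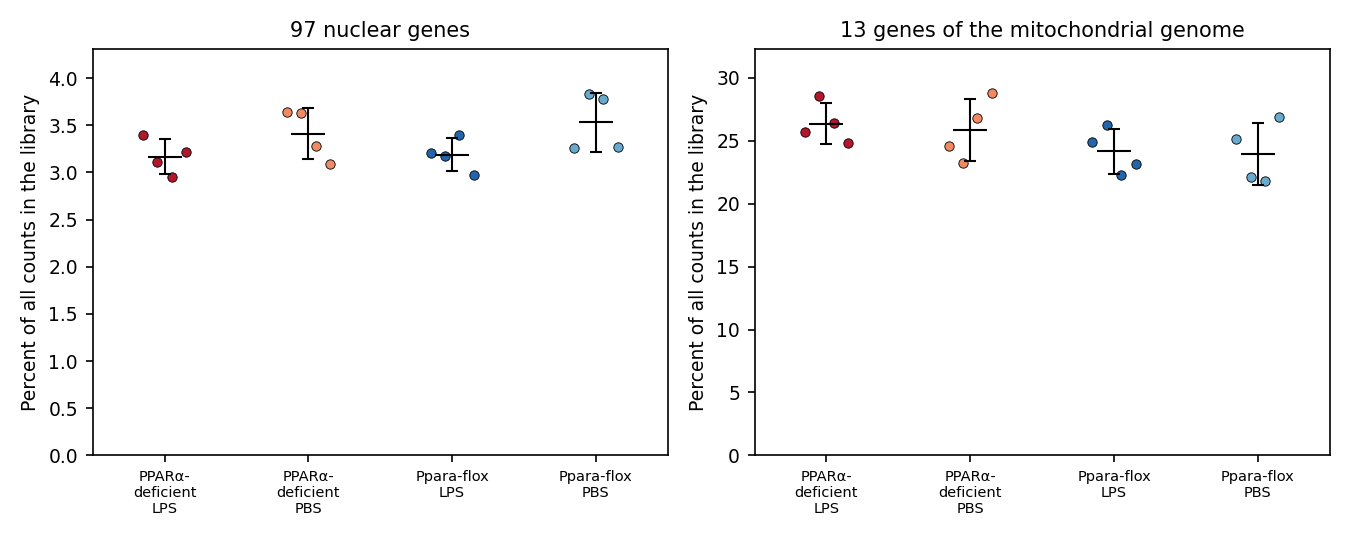
The percent of all counts in each library (vertical axes, from 0) taken by the 97 nuclear members (left) and by the 13 genes of the mitochondrial genome (right) is plotted for the 4 groups, PPARα-deficient LPS, PPARα-deficient PBS, Ppara-flox LPS and Ppara-flox PBS, with the mean and SD of 4 libraries. Nuclear members take 2.95% to 3.83% and mitochondrial genes 21.8% to 28.8%, and LPS and PBS libraries overlap in every panel and genotype.

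Markers of heart cell types moved with LPS as well. None of the 4 islet markers had a count, and the 8 cardiomyocyte markers summed to 37204 to 40134 CPM in PPARα-deficient LPS hearts and 51514 to 59905 CPM in PPARα-deficient PBS hearts, and 6 of 8 fell. In Ppara-flox hearts they summed to 32612 to 38358 CPM with LPS and 55257 to 61513 CPM with PBS, and 8 of 8 fell. The 6 neutrophil markers summed to 23.5 to 26.2 CPM in PPARα-deficient LPS hearts and 1.27 to 8.27 CPM in PPARα-deficient PBS hearts, and to 18.5 to 41.8 CPM in Ppara-flox LPS hearts and 2.16 to 3.12 CPM in Ppara-flox PBS hearts, with 4 of the 5 tested rising in each genotype. Of the 8 macrophage markers 1 rose and 4 fell in each genotype, and of the 6 smooth muscle and pericyte markers 4 fell in each. Of the 6 endothelial markers 2 fell in each, and of the 6 fibroblast markers 1 rose and 4 fell in each. Of the 3 tested brown adipocyte markers 0 passed in PPARα-deficient hearts, while in Ppara-flox hearts 2 rose (Cidea and Elovl3) and 1 fell (Cox7a1, itself a member), and Cidea was lower in PPARα-deficient than in Ppara-flox hearts given LPS. Of the 3 red blood cell markers 2 fell in PPARα-deficient hearts and 0 in Ppara-flox hearts. Of the 2 tested skeletal muscle markers 1 fell in Ppara-flox hearts (Ckm, which heart muscle also expresses), as did 1 of the 3 tested B cell markers, and none of either passed in PPARα-deficient hearts. None of the 5 tested T and NK cell markers passed in either genotype, and none of the 4 white adipocyte markers passed the filter on low counts. The part of these shifts in the respiratory gene results was not tested.

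Genes that build or regulate the chain and carry other names were counted beside the members. Of 42 tested assembly factors outside the name rule, 2 rose and 20 fell in PPARα-deficient hearts (47.6% lower, against 18.3% of all genes, median −0.25) and 2 rose and 21 fell in Ppara-flox hearts (50% lower, against 19.1%, median −0.27). Sdhaf4, an assembly factor of complex II, had log2 fold changes of −0.98 and −1.06 (edgeR adjusted p = 8.11e-07 and 3.36e-07). Cox10, which makes heme O, the precursor of the heme A of complex IV, had −0.94 and −0.99 (edgeR adjusted p = 9.33e-08 and 5.27e-08). Taco1, which helps translate mt-Co1, had −0.88 and −0.78, and Lrpprc, which stabilises mitochondrial mRNAs, −0.48 and −0.51, all called. Cox18 rose by 0.61 and 0.66. Cycs, the soluble carrier cytochrome c, was called in PPARα-deficient hearts at −0.24, against −0.18 without a call in Ppara-flox hearts. Cyc1, cytochrome c1, is a membrane-anchored catalytic subunit of complex III that the name rule leaves out. It had log2 fold changes of −0.23 without a call in PPARα-deficient hearts and −0.32 with a call in Ppara-flox hearts (edgeR adjusted p = 0.0719 and 0.014).

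Of 16 genes for copying and reading mitochondrial DNA, 1 rose and 6 fell in PPARα-deficient hearts (37.5% lower) and 0 rose and 5 fell in Ppara-flox hearts (31.2% lower), against 18.3% and 19.1% of all genes. Tfam, which packages and starts transcription of mitochondrial DNA, fell by 0.41 and 0.26 on the log2 scale, and Polrmt, the mitochondrial RNA polymerase, by 0.38 and 0.43. Of 13 regulators of respiratory genes, 1 rose and 6 fell in PPARα-deficient hearts and 2 rose and 6 fell in Ppara-flox hearts, 46.2% lower in each. Ppargc1a, which encodes PGC-1α, had log2 fold changes of −2.79 (SE 0.36, edgeR adjusted p = 1.39e-05) and −3.81 (SE 0.38, edgeR adjusted p = 7.83e-07). The ERR genes Esrra and Esrrg had −1.06 and −2.17 in PPARα-deficient hearts and −1.23 and −2.26 in Ppara-flox hearts, all called. Pprc1, a PGC-1 relative, rose by 0.87 and 0.86, and Nrf1, Gabpa and Yy1 passed in neither genotype. Of 13 coenzyme Q genes 2 rose and 5 fell in each genotype (38.5% lower), with Coq8b at 1.56 and 1.65 and Coq10a at −0.43 and −0.51. Of the 4 tested carrier and subunit genes outside the rule, 1 fell in each genotype.

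Between genotypes no member passed with edgeR. Given PBS, 0 of 108 were called in PPARα-deficient against Ppara-flox hearts, against 0.433% of all genes, and 2 were under an unadjusted p of 0.05 (Cox6b2 and Ndufa3, both lower), against 5.57% of all genes. Given LPS, 0 of 108 were called, against 1.23% of all genes, and 11 were under an unadjusted p of 0.05, against 9.13%. Of these 11, Cox6b2 was lower and 10 were higher: Ndufa6, Ndufa11, Ndufaf3, Ndufaf5, Ndufaf6, mt-Nd2, mt-Co2, mt-Co3, Atp5c1 and Atp5d. DESeq2 called Cox6b2 in each comparison and limma-voom called 0 in each. Groups did not overlap for 7 members higher and 1 lower given LPS, against 2.53% and 2.79% of all genes, and for 1 higher and 2 lower given PBS, against 1.57% and 2.42%. Between genotypes 1 of 8 cardiomyocyte markers was called higher given LPS and 0 given PBS, and the part of this in the values was not tested.

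Cox6b2, known as the testis isoform of subunit VIb (chr7:4751792-4753094, minus strand), was the member with the widest difference between genotypes, at levels near the lower limit of the tables. It had 0.106, 0.117, 0.203 and 0.224 CPM in PPARα-deficient LPS hearts and 1.04, 1.13, 1.29 and 0.692 CPM in Ppara-flox LPS hearts. Given PBS it had 0.151, 0.309, 0.138 and 0 CPM in PPARα-deficient hearts and 0.526, 1.13, 1.37 and 1.68 CPM in Ppara-flox hearts. All 8 PPARα-deficient libraries were below all 8 Ppara-flox libraries. The log2 fold changes were −2.67 given LPS (SE 0.65, edgeR adjusted p = 0.0604) and −2.95 given PBS (SE 0.66, edgeR adjusted p = 0.0691). Given PBS it was called without Ppara-flox replicate 1 or without PPARα-deficient replicate 2 or 4. The main isoform, Cox6b1, averaged 281 CPM in PPARα-deficient LPS hearts, 272 CPM in Ppara-flox LPS hearts, 303 CPM in PPARα-deficient PBS hearts and 312 CPM in Ppara-flox PBS hearts. With LPS Cox6b1 was not called in either genotype, and in Ppara-flox hearts it was called lower in 1 of 20 alternatives.

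The 13 mitochondrial genes were above 0 in both genotype comparisons without a call, with median log2 fold changes of 0.19 given LPS and 0.18 given PBS. Over the alternatives these medians ranged from 0.13 to 0.32 and from 0.10 to 0.28. The 13 genes are cut from shared precursor RNAs and share libraries, so they are not 13 independent measurements. For mt-Nd2 the values were 17050, 19016, 17560 and 15832 CPM in PPARα-deficient LPS hearts and 15251, 15641, 11928 and 13623 CPM in Ppara-flox LPS hearts, without overlap, and the log2 fold change was 0.30 (SE 0.13, edgeR adjusted p = 0.451). The 80 nuclear subunits had medians of 0.05 given LPS and −0.04 given PBS. With the 2 series of header numbers among the 8 PBS libraries as a block, 0 members were called and the medians given PBS were 0.18 for mitochondrial genes and −0.04 for nuclear subunits.

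**Figure D5:**
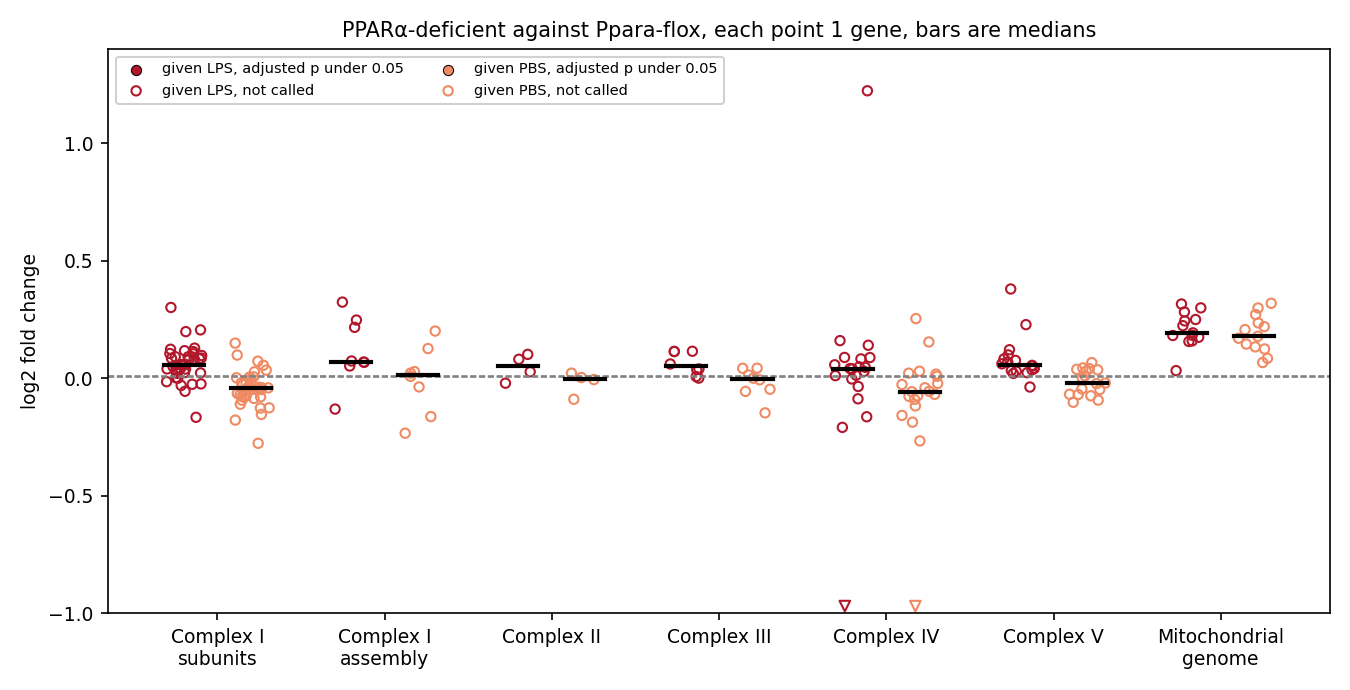
The log2 fold change of PPARα-deficient over Ppara-flox hearts (vertical axis) is plotted for each tested member by complex and genome (horizontal axis), with hearts given LPS in red left of hearts given PBS in orange. Open points did not pass and bars are medians; the triangles are Cox6b2, off the scale at −2.67 and −2.95, the highest point is Cox7b2 at 1.22, and all points of the mitochondrial genome lie above 0.

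The difference between the LPS effects of the genotypes, tested as an interaction, passed for 0 of 108 members and 0.0% of all genes with edgeR, and for 0 members with DESeq2 and limma-voom. At an unadjusted p under 0.05 there were 2 members, Ndufa6 at 0.27 and Ndufa11 at 0.38, against 5.74% of all genes. The larger number of calls in Ppara-flox hearts is therefore not shown to be a difference between the genotypes. By sign, the interaction was above 0 for 74 of the 80 nuclear subunits and 96 of 108 members, against 50.7% of all genes, with a median of 0.08 for the nuclear subunits that ranged from 0.04 to 0.12 over the alternatives. Members of a library moved together, so these signs are not independent measurements, and their number was not tested. Ndufaf6 had an interaction of 0.30 (unadjusted p = 0.0525 with edgeR), and given LPS its PPARα-deficient libraries, at 8.63 to 9.61 CPM, lay above its Ppara-flox libraries, at 6.94 to 8.02 CPM (log2 fold change 0.32, edgeR adjusted p = 0.193). Among genes outside the rule, Coq3, a methyltransferase of coenzyme Q synthesis, was lower in PPARα-deficient hearts by log2 fold changes of −0.85 given LPS (edgeR adjusted p = 0.000166) and −0.77 given PBS (edgeR adjusted p = 0.000733).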

How the data were processed

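RNA-seq of 16 heart libraries was analysed from the count tables as deposited. The values are estimated counts per gene, made by the authors with HISAT and StringTie 1.3.3b on GRCm38 after fastp 0.23.2, per the submitters' processing notes, which also name DESeq2 1.30.1. They are whole numbers, and low values pile up at multiples of 4 (4 occurs in 12828 entries, 3 in 5290 and 5 in 7264), so low counts are coarser than reads. The counting strand setting is not given in the sources used here, the kit is stranded, and 42 members share exon bases with another gene. Totals were 65569134 to 75436023 counts, and 27 date-like symbols were left out.

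Counts were fitted over all 16 libraries as 4 group means with edgeR 4.0.16 (R 4.3.3): filterByExpr, TMM scaling, the quasi-likelihood F test, and Benjamini-Hochberg adjustment over 18713 genes. SE was derived from the test, as the absolute log2 fold change divided by the square root of the quasi-likelihood F value. Per-kilobase levels used the main transcript of GENCODE on GRCm38. Promoters came from RefSeq. Alternatives were DESeq2 1.42.0, limma-voom (limma 3.58.1), other scalings and filters, a threshold of 0.01, counts divided by 4, a replicate block, and leaving out libraries; the number-series block was added after seeing the data. The fit was tested on simulated data with genes drawn independently and changes larger than most falls described here. It does not show how well those smaller falls are recovered. The same replicate number in different groups did not pair libraries (r from −0.20 to 0.16).

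Values in every library are given for the members with the 2 smallest adjusted p and the largest called change per class and LPS comparison. They are also given for the isoform families, but ranges stand for Cox6a1, Cox8a and Cox7b2 and group means for Cox6b1. Some further members were added after their values were seen. Members and lists were chosen with earlier results of these data known. The values of 1 complex I member are not reported here.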

Additional observations from a re-analysis of the deposited data

Results flagged for a closer look

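In 176 groups of 4 libraries checked, 9 had a library set apart from the other 3 by Dixon's ratio, and chance sets apart about 1 in 20 groups.
Ndufs1 in Ppara-flox LPS hearts was low in replicate 2, at 442 CPM. Uqcrfs1 was low in Ppara-flox LPS replicate 4, at 450 CPM, and so was the summed nuclear complex III, at 3046 CPM. Cox7a2l was low in Ppara-flox LPS replicate 1, at 112 CPM. The summed complex II was high in Ppara-flox LPS replicate 3, at 2307 CPM. Atp5g1 was low in PPARα-deficient LPS replicate 3, at 661 CPM. Cox7b2, near the lower limit of the tables, was highest in PPARα-deficient LPS replicate 4, at 0.14 CPM, and in Ppara-flox LPS replicate 2, at 0.0574 CPM, with 0 in the other 3 libraries of each group. The gene mt-Nd5 was high in PPARα-deficient LPS replicate 2, at 27248 CPM, and without that library its LPS change was −0.31 on the log2 scale (edgeR adjusted p = 0.045), the only member of the mitochondrial genome to pass with a library left out of that comparison.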

How the results depend on the processing

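Members called lower with LPS numbered 17 in PPARα-deficient hearts and 42 in Ppara-flox hearts, and no alternative gave a member called higher. With 1 library left out the numbers ranged from 9 to 16 in PPARα-deficient hearts and from 29 to 46 in Ppara-flox hearts. At an adjusted p under 0.01 they were 6 and 22. Other tools, scalings, filters and sets of libraries gave 14 to 22 and 31 to 56. With the replicate number as a block the counts were 16 and 44 for LPS and 0 for both genotype comparisons and the interaction; the numbers do not pair the libraries, and the cause of each shift was not tested. Given PBS, 1 member (Cox6b2) was lower in PPARα-deficient hearts with counts divided by 4 and with DESeq2, and 0 to 1 with a library left out. Given LPS, 1 (Cox6b2) was lower with counts divided by 4, with DESeq2 and in a fit to the 8 libraries compared. Of the named values recomputed for single genes, 3298 kept their side of the threshold, 35 passed it, 61 lost it and 0 reversed. These include genotype and interaction values, most of them far from the threshold, so the tally does not measure how stable the LPS calls are. Of the LPS calls, 8 of 17 in PPARα-deficient hearts and 27 of 42 in Ppara-flox hearts held whichever library was left out. The median of nuclear subunits ranged from −0.17 to −0.10 in PPARα-deficient hearts and from −0.27 to −0.16 in Ppara-flox hearts. Depth limits Cox6b2 and Cox7b2, at under 2 CPM in every library.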

Other observations

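Second gene copies of subunits were low. Ndufb4c averaged 14.6 CPM in PPARα-deficient LPS hearts and 17.2 CPM in PPARα-deficient PBS hearts, and 14.1 CPM in Ppara-flox LPS hearts and 17.2 CPM in Ppara-flox PBS hearts, and was called lower with LPS in both genotypes. Ndufs6b and Cox6c2 stayed between 1.65 and 3.41 CPM in all 16 libraries. Reads of such copies may be split with the main gene, so their levels are uncertain.

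Atp5d, the delta subunit of the F1 head, had 407, 240, 215 and 354 CPM in PPARα-deficient LPS hearts and 280, 280, 249 and 226 CPM in PPARα-deficient PBS hearts. Replicates 1 and 4 of the PPARα-deficient LPS group were above all other libraries, and the log2 fold change was 0.23 with an SE of 0.17. In Ppara-flox hearts Atp5d had 225, 269, 250 and 192 CPM with LPS and 235, 298, 302 and 255 CPM with PBS, at −0.22.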
